A study of Mus musculus with 18 samples.

Results

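Norepinephrine was compared with its HCl vehicle in mouse small intestinal organoids, across all genes of the RNA-seq counts and beyond the genes that usually mark cell types. Of the 18 samples of the series, 9 belong to this comparison, 5 with norepinephrine from mice 1 to 5 and 4 with HCl vehicle from mice 1 to 4. Organoids were grown from crypts of female wild-type C57BL/6 mice aged 8 to 12 weeks, passaged 4 times and then kept for 4 days with norepinephrine at 1 μM or with the vehicle. The other 9 samples, from the same mice, received the α2-adrenergic agonist UK14304 at 1 μM or its DMSO vehicle. They were fitted in the same model, so they enter the filter, the scaling, the mouse terms, the spread and 1 test of a difference. The number in each sample name was read as the mouse, and each mouse gave 1 library per condition, so that mouse 5 had no vehicle partner. Its norepinephrine library enters the fold changes through the UK14304 library of that mouse. The study asked how sympathetic signals act on the intestinal epithelium.

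Norepinephrine is the transmitter of sympathetic nerves and binds α- and β-adrenergic receptors, which are coupled to G proteins. Receptors of the α2 class inhibit adenylyl cyclase through Gi and lower cyclic AMP, while β receptors raise it through Gs. Small intestinal organoids are epithelial cultures without nerves, muscle or blood vessels, in which stem cells and Paneth cells sit in crypt buds and enterocytes, goblet cells, enteroendocrine cells and tuft cells differentiate from them. Paneth cells secrete granules of antimicrobial proteins, among them lysozyme and the α-defensins, whose genes lie in a cluster on chromosome 8 of the mouse.

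The 9 libraries held from 21.9 M to 25.9 M counts (M for 10 to the power of 6), with those of HCl vehicle from 22.2 M to 25.1 M. The 7 epithelial markers, such as Epcam and Vil1, summed to between 7177 and 7966 counts per M counts of the library (CPM) in the 9 libraries. Markers of mesenchyme summed to between 2.06 and 3.89 CPM and those of endothelium to between 0.715 and 1.50 CPM. Of these, Col3a1, Dcn, Lum, Cdh5 and Emcn had 0 counts, while Pdgfrb had 524, Pecam1 151 and Tek 101 in the 9 libraries together. Markers of immune cells summed to between 5.17 and 7.24 CPM and those of neurons and glia to between 7.44 and 11.2 CPM. Their largest members were Itgam with 705 counts and Ret with 1418. The norepinephrine library of mouse 4 stood apart. Expression was taken here relative to each gene's mean over all libraries of the series. On this relative scale it rose with GC content by 0.208 log2 units per 10 percentage points in that library. The slopes were -0.156 to -0.0763 in the other 4 norepinephrine libraries and 0.0488 to 0.0786 with HCl vehicle. Calls and list counts are also given without the norepinephrine library of mouse 4 where they moved.

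Levels are given as CPM scaled by the TMM method, and differences as log2 fold changes of norepinephrine over HCl vehicle from edgeR's quasi-likelihood test with the mouse as a block, in which each mouse serves as its own control. SE is the standard error of a log2 fold change. A gene is said to pass where the p adjusted by the Benjamini-Hochberg method over all tested genes was under 0.05. Of 15247 genes tested, 16 passed (0.105%), of which 2 rose (0.0131%) and 14 fell (0.0918%). The difference had the same direction in mice 1 to 4 for each of the 16. An unadjusted p under 0.05 was found for 1280 genes (8.40%), of which 432 were higher (2.83%) and 848 lower (5.56%). Over all genes the median log2 fold change was -0.01, and 811 genes (5.32%) were higher and 1262 (8.28%) lower in 4 of 4 mice. List counts given further on at that p or in 4 of 4 mice stand beside these shares of all genes. Without the block 0 genes passed in edgeR, with 943 at an unadjusted p under 0.05, so the calls rest on the comparison within mice. Without the norepinephrine library of mouse 4, 2529 of 15161 genes passed (16.7%), 1385 higher (9.14%) and 1144 lower (7.55%), and these included each of the 16 in the same direction. In a further fit each library was corrected for a smooth trend along GC content (GC trend removed). There 36 genes passed (0.236%), 7 higher (0.0459%) and 29 lower (0.190%), again with all 16 in the same direction, and 526 were higher (3.45%) and 745 lower (4.89%) at an unadjusted p under 0.05.

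**Figure D1:**
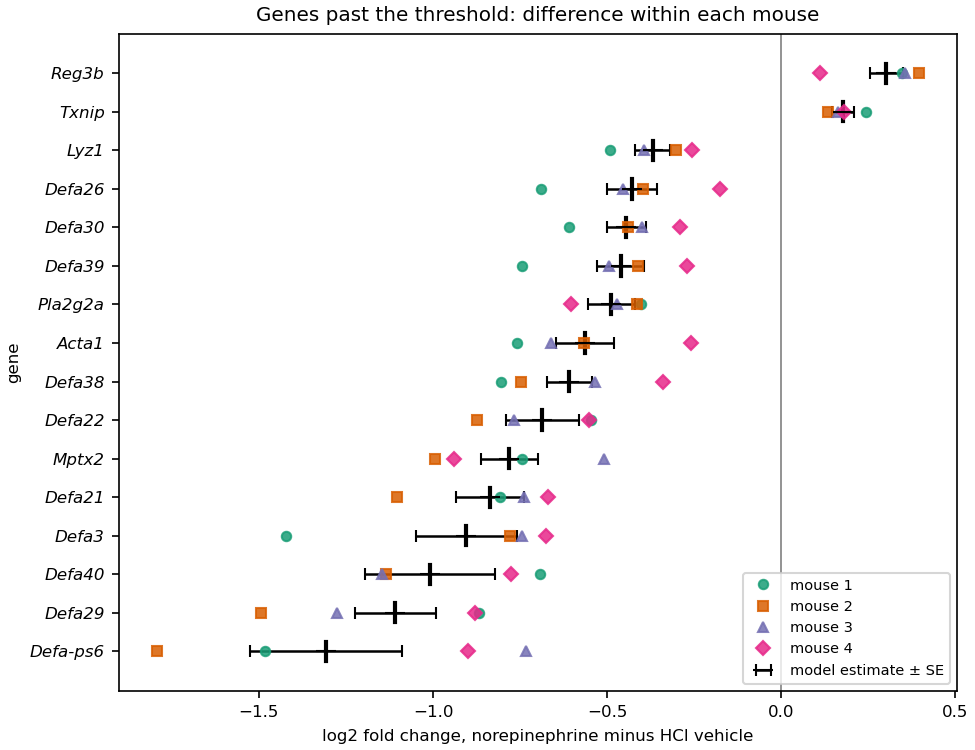
Log2 fold change of norepinephrine over HCl vehicle (x axis) of the 16 genes past the threshold (y axis), with coloured symbols for mice 1 to 4 and black marks for the model estimate with its standard error. All symbols of Reg3b and Txnip lie to the right of 0 and all others to the left.

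Genes for granule proteins of Paneth cells made up most of the genes that fell. Of the 14, 10 were defensin loci on chromosome 8, and Mptx2, Lyz1 and Pla2g2a are further genes for secreted proteins of this cell type. In all, 11 of the 14 lay on chromosome 8, which held 865 of the 15247 tested genes. Fewer Paneth cells and less RNA per Paneth cell cannot be told apart in RNA of whole organoids.

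Mptx2 (ENSMUSG00000079180, chromosome 1 from 173274382 to 173277777 of GRCm38) encodes mucosal pentraxin 2, a secreted pattern recognition protein. It had 39.4, 17.2, 29.3 and 28.9 CPM with HCl vehicle in mice 1 to 4 and 23.5, 8.58, 20.6, 15.0 and 17.6 CPM with norepinephrine in mice 1 to 5. The norepinephrine value was the lower one in each of the 4 pairs, but the groups overlapped, since mouse 2 was the lowest mouse under both conditions. Its log2 fold change was -0.78 (SE 0.0810, edgeR adjusted p = 9.23e-05), a fall of 41.8%. In mice 1 to 4 it was -0.74, -0.99, -0.51 and -0.94.

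Defensin loci had the steepest falls of the 16 genes. Defa29 had 16.3, 11.8, 16.0 and 16.3 CPM with HCl vehicle in mice 1 to 4 and 8.92, 4.13, 6.56, 8.79 and 8.39 CPM with norepinephrine in mice 1 to 5. Its groups did not overlap, which was so for 0.780% of all genes with norepinephrine lower. The pseudogene Defa-ps6 had a log2 fold change of -1.31 (SE 0.219, edgeR adjusted p = 0.0127), at 16 counts or more in each of the 9 libraries, and its groups did not overlap either, with 1.91 to 3.70 CPM against 0.735 to 1.59 CPM. Defa40, the least abundant of the 16, had 2.04, 1.01, 2.17 and 1.34 CPM with vehicle against 1.23, 0.413, 0.937, 0.749 and 0.624 CPM with norepinephrine.
Other defensin loci had smaller changes. Defa30 had 224, 128, 189.7 and 173 CPM with HCl vehicle in mice 1 to 4 and 147, 94.3, 144, 141 and 138 CPM with norepinephrine in mice 1 to 5, with a log2 fold change of -0.44 (SE 0.0562, edgeR adjusted p = 0.000843). Defa39 had -0.46 (adjusted p = 0.00432) and Defa26 -0.43 (adjusted p = 0.0127) in edgeR. Of the 28 α-defensins listed, 15 passed the filter on low counts. The log2 fold changes of these 15, a list to which Defa-ps6 does not belong, ran from -1.11 to -0.21 with a median of -0.46. Of the 15, 9 fell, 12 were lower at an unadjusted p under 0.05 and 10 were lower in 4 of 4 mice. Over all genes 5.56% were lower at that p and 8.28% in 4 of 4 mice. Without the norepinephrine library of mouse 4, 11 passed as lower, against 7.55% of all genes. The list's median within mice 1 to 4 was -0.69, -0.44, -0.56 and -0.29, and it was -0.65 in the model without the norepinephrine library of mouse 4. Summed over the list, the counts ran from 1328 to 2062 CPM with HCl vehicle and from 1075 to 1566 CPM with norepinephrine. The 10 defensin loci that fell each match between 1 and 7 other genes over at least 50 bp at 95% identity or more, and reads that map to several places were not counted, so their single values are uncertain.

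The promoters of these genes are shown because the loci fell together. TCF factors, which carry the Wnt signal into the nucleus, are known to act on α-defensin genes, and their motif CTTTGAT was searched on both strands in the 250 bases before each start in the RefSeq table for GRCm38.p6. It was present for 6 of the 7 tested α-defensins with an entry there (Defa21, Defa22, Defa28, Defa30, Defa35 and Defa41), against 1005 of 27025 genes (3.72%). Of these, Defa21, Defa22 and Defa30 passed, while Defa28, Defa35 and Defa41 did not (edgeR adjusted p = 0.63, 0.80 and 0.59). The other listed α-defensins that fell had no entry or no match. Of the other Paneth cell products 1 of 11 held the motif, which was Mmp7. The stretch of Defa21 (chr8:21025295-21025544, plus strand) and that of Defa22 (chr8:21162027-21162276, plus strand) were identical over all 250 bases, with the motif starting 112 and 72 bases before the start. Defa30 (chr8:21134400-21134649, plus strand) held it once. Capitals mark the motif, which reads ATCAAAG here because it lies on the opposite strand.
Defa21: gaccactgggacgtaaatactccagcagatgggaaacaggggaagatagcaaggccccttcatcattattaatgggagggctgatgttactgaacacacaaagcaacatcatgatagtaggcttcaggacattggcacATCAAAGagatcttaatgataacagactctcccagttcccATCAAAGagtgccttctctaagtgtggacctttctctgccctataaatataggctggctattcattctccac
Defa30: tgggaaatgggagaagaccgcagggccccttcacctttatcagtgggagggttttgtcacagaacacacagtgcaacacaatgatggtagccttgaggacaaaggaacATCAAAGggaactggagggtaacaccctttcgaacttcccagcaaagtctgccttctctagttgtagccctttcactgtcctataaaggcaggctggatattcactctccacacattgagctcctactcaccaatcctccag
Such a match describes the letters only. Defa21, with the repeated motif, had 28.3, 16.4, 37.8 and 24.7 CPM with vehicle against 16.1, 7.57, 22.6, 15.5 and 17.9 CPM with norepinephrine, a log2 fold change of -0.84 (SE 0.0982, edgeR adjusted p = 0.000382). Defa22, with the same upstream letters, had -0.69 (SE 0.104, edgeR adjusted p = 0.00620).

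Lyz1, the lysozyme of Paneth cells, was the most abundant gene that fell. It had 1822, 1133, 1637 and 1315 CPM with HCl vehicle in mice 1 to 4 and 1295, 918, 1245, 1099 and 1229.6 CPM with norepinephrine in mice 1 to 5. Its log2 fold change was -0.37 (SE 0.0501, edgeR adjusted p = 0.00190), and its sequence matches 1 other gene over 1264 bp at that identity. Pla2g2a encodes a secreted phospholipase A2 that kills bacteria, and is known to carry a frameshift in C57BL/6 mice (the annotation calls it a polymorphic pseudogene). Its transcript had 15.6, 11.5, 16.5 and 12.6 CPM with HCl vehicle in mice 1 to 4 and 11.8, 8.58, 11.9, 8.24 and 12.7 CPM with norepinephrine in mice 1 to 5. Both genes were lower with norepinephrine in every pair, with overlapping groups, and the log2 fold change of Pla2g2a was -0.49 (SE 0.0673, edgeR adjusted p = 0.00205). It was -0.40, -0.41, -0.47 and -0.60 in mice 1 to 4, so that the norepinephrine library of mouse 4, which stands apart in GC content, gave the most negative value of this gene.
Further genes listed for Paneth cells did not pass in the model over all samples, among them 4 with edgeR adjusted p from 0.0563 to 0.122. Mmp7, the metalloproteinase that cuts pro-defensins into active peptides, had 114, 97.4, 128 and 92.5 CPM with HCl vehicle in mice 1 to 4 and 94.7, 82.0, 100.1, 83.6 and 91.6 CPM with norepinephrine in mice 1 to 5. Each pair was lower with norepinephrine, and the log2 fold change of -0.26 (SE 0.0512, edgeR adjusted p = 0.0563) did not pass. Reg4, a lectin, had -0.22 (adjusted p = 0.0569), Ang4, an antimicrobial ribonuclease, -0.29 (adjusted p = 0.0702), and Itln1, the lectin intelectin, -0.21 (adjusted p = 0.122) in edgeR, all lower in 4 of 4 mice. Itln1 was chosen after its values were seen. In the list of other Paneth cell products 15 of 16 genes were tested and 2 fell, with a median of -0.21. At an unadjusted p under 0.05, 10 were lower, and 8 were lower in 4 of 4 mice, against 5.56% and 8.28% of all genes. The list's median was -0.27, -0.23, -0.30 and -0.01 within mice 1 to 4. Without the norepinephrine library of mouse 4, 9 of the 15 passed as lower, against 7.55% of all genes. With the GC trend removed, Mmp7, Reg4 and Itln1 passed, at -0.28 (edgeR adjusted p = 0.0161), -0.23 (edgeR adjusted p = 0.000697) and -0.18 (edgeR adjusted p = 0.00337).

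**Figure D2:**
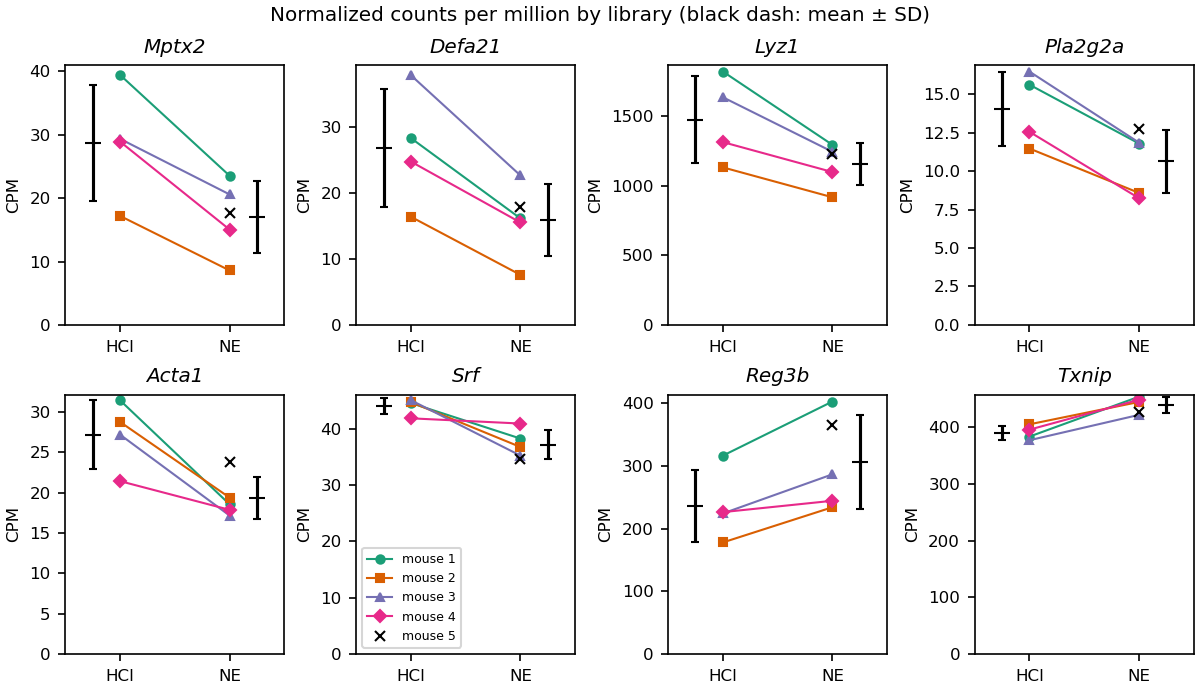
Normalized CPM (y axes, from 0) of 8 genes in the 4 HCl and 5 norepinephrine (NE) libraries, with lines joining samples of one mouse, a cross for mouse 5, and black dashes with bars for the mean ± SD of each group. Lines of Mptx2, Defa21, Lyz1, Pla2g2a, Acta1 and Srf slope down and those of Reg3b and Txnip slope up in each of mice 1 to 4.

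Outside the Paneth cell products, the single gene that fell was Acta1, which encodes the α-actin of skeletal muscle and is a classic target of serum response factor (Srf), a regulator that switches on actin genes when free actin is used up. Acta1 (ENSMUSG00000031972, chromosome 8 from 123891769 to 123894751 of GRCm38) had 31.4, 28.7, 27.2 and 21.4 CPM with HCl vehicle in mice 1 to 4 and 18.5, 19.4, 17.2, 17.9 and 23.8 CPM with norepinephrine in mice 1 to 5. The norepinephrine value was lower in each pair, and the groups overlapped only through mouse 5 with norepinephrine and mouse 4 with vehicle. On the log2 scale the change was -0.56 (SE 0.0839, edgeR adjusted p = 0.00432), a fall of 32.4%, with -0.76, -0.57, -0.66 and -0.26 in mice 1 to 4. Acta2, the smooth muscle actin, had 16 counts and Des, a muscle filament gene, 3 counts in the 9 libraries together.
Srf itself had 44.6, 44.7, 45.1 and 41.9 CPM with HCl vehicle in mice 1 to 4 and 38.3, 36.8, 35.2, 40.9 and 34.6 CPM with norepinephrine in mice 1 to 5. Its groups did not overlap, yet the log2 fold change of -0.23 (SE 0.0567, edgeR adjusted p = 0.255) did not pass. When the norepinephrine library of mouse 4 was left out, it was -0.29 (edgeR adjusted p = 0.00101), and with the GC trend removed -0.12 (edgeR adjusted p = 0.304). Myadm, a membrane protein gene, had -0.18 (adjusted p = 0.146) and Cnn2, the actin-binding calponin 2, -0.28 (adjusted p = 0.556) in edgeR, both lower in 4 of 4 mice with groups that did not overlap. Of all genes 8.28% were lower in 4 of 4 mice, and 0.780% had groups without overlap and norepinephrine lower. Of 26 Srf and actin genes listed 24 were tested and 1 fell. At an unadjusted p under 0.05, 8 were lower, and 7 were lower in 4 of 4 mice, against 5.56% and 8.28% of all genes. The median was -0.09, and within mice 1 to 4 it was -0.09, -0.11, -0.15 and 0.02. Removal of the GC trend brought it to -0.04. In the fit lacking the norepinephrine library of mouse 4, 12 of the 24 passed as lower, against 7.55% of all genes.

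Srf binds the CArG box, a stretch of A and T between CC and GG that reads as itself on the other strand. The box was searched in the same 250 bases before each RefSeq start, and 439 of 27025 genes (1.62%) held it. Of the tested Srf and actin genes 7 of 22 with an entry held it (Srf, Acta1, Actg1, Myl9, Vcl, Cnn2 and Myadm), on a list that holds known Srf targets. The sequences of Acta1 (chr8:123894776-123895025, minus strand) and Srf (chr17:46556163-46556412, minus strand) are shown because Acta1 passed and Srf is its known regulator. Capitals mark the box, which started 73 bases before the start of Acta1, and 82 and 62 bases before that of Srf.
Acta1: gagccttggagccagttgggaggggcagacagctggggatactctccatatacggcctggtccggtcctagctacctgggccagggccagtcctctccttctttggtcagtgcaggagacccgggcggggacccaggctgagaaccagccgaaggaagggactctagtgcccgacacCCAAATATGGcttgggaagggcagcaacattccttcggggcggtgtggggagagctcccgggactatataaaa
Srf: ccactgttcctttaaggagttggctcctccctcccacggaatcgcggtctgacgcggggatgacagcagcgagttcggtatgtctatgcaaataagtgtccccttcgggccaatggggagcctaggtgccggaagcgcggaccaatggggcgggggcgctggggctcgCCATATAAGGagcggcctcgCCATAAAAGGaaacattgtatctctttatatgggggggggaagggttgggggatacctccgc
Both stretches thus hold the box close to the start, and no factor binding was measured here.

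Immediate early genes, which respond within minutes to growth factors and stress and many of which Srf also controls, were mostly lower. Junb, an AP-1 subunit, had 63.1, 77.7, 53.6 and 67.2 CPM with HCl vehicle in mice 1 to 4 and 49.8, 53.0, 41.0, 62.3 and 49.6 CPM with norepinephrine in mice 1 to 5. It was lower in each pair with overlapping groups, and its log2 fold change of -0.35 (SE 0.0801, edgeR adjusted p = 0.195) did not pass. With the GC trend removed it was -0.24 (edgeR adjusted p = 0.0215). Rhob, which encodes an actin-regulating GTPase and was chosen after its values were seen, had 41.4, 52.0, 35.6 and 45.1 CPM with vehicle against 35.6, 39.5, 29.7, 40.5 and 34.5 CPM with norepinephrine. For Rhob it came to -0.27 (SE 0.0545, edgeR adjusted p = 0.0689). Ier3 had -0.29 (adjusted p = 0.556) and Fosl2 -0.11 (adjusted p = 0.556) in edgeR. Of 26 immediate early genes listed 24 were tested and 0 passed in edgeR. Of the 24, 7 were lower at an unadjusted p under 0.05 and 6 in 4 of 4 mice, against 5.56% and 8.28% of all genes. The list's median GC content was 54.6%, against 50.0% for all genes. Its median log2 fold change was -0.10, and -0.05 with the GC trend removed. By mouse the median was -0.05, -0.16, -0.16 and 0.04, so that mouse 4 had the opposite sign. Without its norepinephrine library 8 of the 24 passed as lower, against 7.55% of all genes.

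Reg3b and Txnip were the genes that rose. Reg3b encodes a C-type lectin that enterocytes secrete against bacteria. It had 316, 178, 224 and 226 CPM with HCl vehicle in mice 1 to 4 and 403, 234, 287, 244 and 365 CPM with norepinephrine in mice 1 to 5. Every pair was higher with norepinephrine, least in mouse 4, and the groups overlapped because mouse 1 was high under both conditions. The log2 fold change was 0.30 (SE 0.0484, edgeR adjusted p = 0.00863), a rise of 23.3%, with 0.35, 0.39, 0.35 and 0.11 in mice 1 to 4. On the list of Reg family and other antimicrobial genes, 12 of 17 were tested, and Reg3b alone passed, with 2 genes higher and 2 lower at an unadjusted p under 0.05 and a median of 0.00. Without the norepinephrine library of mouse 4, 2 passed as higher and 2 as lower, against 9.14% and 7.55% of all genes. The pair lower in the model over all samples were Duox2 with -0.21 (adjusted p = 0.556) and Nos2 with -0.31 (adjusted p = 0.556) in edgeR, enzymes that make hydrogen peroxide and nitric oxide.
Txnip encodes the thioredoxin-interacting protein, which restrains glucose uptake and is itself induced by glucose. It had 383, 405, 377 and 396 CPM with HCl vehicle in mice 1 to 4 and 454, 444, 422, 448 and 426 CPM with norepinephrine in mice 1 to 5. All norepinephrine libraries were above all vehicle libraries, which was so for 0.643% of the tested genes. The log2 fold change was 0.18 (SE 0.0321, edgeR adjusted p = 0.0310), a rise of 13.0%. The locus shares exon bases with Gm15441, which is read from the other strand, and since strand was not used in counting, their reads cannot be told apart. Leaving out 1 of 7 libraries (HCl of mice 1 to 4, norepinephrine of mice 1 to 3) ended the call of Txnip, with adjusted p from 0.0697 to 0.218 in edgeR, as did the fit of norepinephrine and HCl samples alone (adjusted p = 0.264). For Reg3b leaving out the HCl library of mouse 1, 2 or 3 or the norepinephrine library of mouse 1 or 3 did so, with adjusted p from 0.057 to 0.092.

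The genes next in rank were picked for being higher in 4 of 4 mice and short of the threshold. Of the next 13 by p, 4 are loci whose biotype in the annotation still awaits experimental proof (Gm44103, Gm43314, 4933431C10Rik and Gm47640) and 1 is a microRNA gene, Mir8091. Gm43314 had 0.724, 1.23, 0.956 and 1.14 CPM with HCl vehicle in mice 1 to 4 and 2.06, 2.57, 2.16, 1.70 and 1.76 CPM with norepinephrine in mice 1 to 5, so that its groups did not overlap. This was so for 0.643% of all genes with norepinephrine higher. The log2 fold change of Gm43314 was 1.04 (SE 0.211, edgeR adjusted p = 0.0732). Col4a2, a basement membrane collagen, had 0.724, 0.777, 0.435 and 0.0406 CPM with vehicle against 1.52, 1.29, 0.896, 0.513 and 1.17 CPM with norepinephrine, with 1.23 (adjusted p = 0.556) in edgeR. Virma, a subunit of the RNA methylation complex, had 0.14 (adjusted p = 0.541), Pik3cg, a kinase downstream of Gβγ, 0.43 (adjusted p = 0.556), and Clca3b, a chloride channel regulator, 0.14 (adjusted p = 0.541). With the GC trend removed Clca3b passed, at 0.14 (edgeR adjusted p = 0.0491).
Among long noncoding RNAs that stay in the nucleus, a pair had higher values without passing. Kcnq1ot1, which silences genes at its imprinted locus, had 0.596, 1.05, 0.826 and 0.975 CPM with HCl vehicle in mice 1 to 4 and 1.85, 2.48, 1.55, 2.05 and 2.15 CPM with norepinephrine in mice 1 to 5. The groups did not overlap, as for 0.643% of all genes with norepinephrine higher, and the log2 fold change was 1.21 (SE 0.381, edgeR adjusted p = 0.556). Malat1, found in nuclear speckles, had 340.0, 362, 341 and 358 CPM with HCl vehicle in mice 1 to 4 and 536, 624, 460.3, 370.0 and 515 CPM with norepinephrine in mice 1 to 5. All norepinephrine values of Malat1 were above all vehicle values, with mouse 4 nearest to them, and the log2 fold change of 0.46 (SE 0.171, edgeR adjusted p = 0.563) did not pass either. Of the 23 long noncoding RNAs tested of 29 listed 0 passed in edgeR, 3 were higher and 1 lower at an unadjusted p under 0.05, and 3 were higher in 4 of 4 mice, with a median of 0.09. When the norepinephrine library of mouse 4 was left out, 5 of 22 passed as higher and 1 as lower, against 9.14% and 7.55% of all genes. With the GC trend removed the list's median was 0.02. Kcnq1ot1 overlaps Kcnq1 and Malat1 overlaps Gm37376 on the other strand.

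Adra2a, which encodes the α2A-adrenergic receptor, had 30.2, 26.8, 29.8 and 29.9 CPM with HCl vehicle in mice 1 to 4 and 27.6, 26.4, 28.5, 29.1 and 25.1 CPM with norepinephrine in mice 1 to 5. The groups overlapped and the log2 fold change was -0.06 (SE 0.0639, edgeR adjusted p = 0.743). The receptor genes Adra1a, Adra1d, Adra2b and Adrb3 had 0 counts in the 9 libraries together, which allows at most 0.0140 CPM (3 counts over the 9 libraries).
Genes of the signalling steps after the receptor showed few differences, none past the threshold. Adcy1, an adenylyl cyclase stimulated by calcium, had 18.9, 13.5, 17.0 and 17.9 CPM with HCl vehicle in mice 1 to 4 and 20.6, 18.6, 20.4, 21.4 and 19.3 CPM with norepinephrine in mice 1 to 5. It was higher in each pair, with a log2 fold change of 0.26 (SE 0.0698, edgeR adjusted p = 0.466), and with the GC trend removed 0.30 (edgeR adjusted p = 0.0230). Rgs2, a regulator of G protein signalling that is induced by cyclic AMP, had 0.34 (adjusted p = 0.560) and Grk3, a kinase that desensitises receptors, 0.13 (adjusted p = 0.556) in edgeR. Both were higher in 4 of 4 mice, as were 5.32% of all genes. On the list of cyclic AMP and CREB targets, 21 of 23 genes were tested, 0 passed in edgeR, and 2 were higher and 1 lower at an unadjusted p under 0.05, with a median of -0.03. On that of receptor desensitisation and G protein regulators 23 of 27 were tested, 0 passed, and 2 were higher and 2 lower, with a median of -0.01. In the fit lacking the norepinephrine library of mouse 4, 3 of the 21 passed as higher and 1 as lower, and 3 of the 23 as higher and 4 as lower. Of all genes 9.14% passed as higher and 7.55% as lower in that fit.

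Glycolytic genes were lower as a group without any gene past the threshold. All 20 listed were tested and had log2 fold changes between -0.24 and 0.00, with a median of -0.15, and 14 had an unadjusted p under 0.05, against 5.56% of all genes lower at that limit. Aldoa, which splits fructose bisphosphate, had 1637, 1794, 1371 and 1710.2 CPM with HCl vehicle in mice 1 to 4 and 1364, 1435, 1119.9, 1699 and 1286 CPM with norepinephrine in mice 1 to 5. The pairs of mice 1 to 3 were lower and that of mouse 4 was nearly level, in overlapping groups, with a log2 fold change of -0.22 (SE 0.0595, edgeR adjusted p = 0.432). Hk1, a hexokinase, had -0.24 (adjusted p = 0.556), Ldha, the lactate dehydrogenase, -0.14 (adjusted p = 0.556) and Pfkl, the liver phosphofructokinase, -0.20 (adjusted p = 0.556) in edgeR. The list's median was -0.18, -0.22, -0.22 and 0.01 within mice 1 to 4. Without the norepinephrine library of mouse 4, 14 of the 20 passed as lower, against 7.55% of all genes. The median GC content of the list was 54.2%, against 50.0% for all genes. With the GC trend removed the list's median was -0.11, and 0 passed in edgeR. At an unadjusted p under 0.05, 14 were lower there, against 4.89% of all genes.
Hypoxia response genes, many of which HIF1 switches on together with glycolysis, were lower in all mice by the median. It was -0.11, -0.18, -0.09 and -0.10 in mice 1 to 4, and -0.11 in the model over 20 of 20 genes. Of these 0 passed in edgeR, and 9 were lower and 1 higher at an unadjusted p under 0.05, against 5.56% and 2.83% of all genes. In 4 of 4 mice 12 were lower, against 8.28% of all genes. Selenbp1, a selenium-binding protein, had -0.23 (adjusted p = 0.421), Ankrd37, a direct HIF1 target, -0.28 (adjusted p = 0.556), and Ndrg1, a stress protein, -0.14 (adjusted p = 0.556) in edgeR. Ankrd37 had 30.7, 44.9, 25.8 and 36.7 CPM with vehicle against 26.6, 31.3, 21.4, 33.6 and 28.9 CPM with norepinephrine. When the norepinephrine library of mouse 4 was left out, 4 passed as lower and 1 as higher, against 7.55% and 9.14% of all genes. Hif1a, the gene higher in the model over all samples and chosen after its values were seen, had 0.18 (adjusted p = 0.556). The median GC content of this list, 49.7%, was near that of all genes, and with the GC trend removed the median stayed at -0.11.

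Cholesterol and fatty acid synthesis genes, which SREBP factors control, had small negative values. All 27 listed were tested, and 0 passed in edgeR. Of these, 14 were lower at an unadjusted p under 0.05 and 14 in 4 of 4 mice, against 5.56% and 8.28% of all genes. Their median was -0.09. Dhcr7, the last enzyme of cholesterol synthesis, had 233, 239, 217 and 237 CPM with HCl vehicle in mice 1 to 4 and 209, 210.2, 191, 232 and 201 CPM with norepinephrine in mice 1 to 5. It was lower in each pair, with the 2 libraries of mouse 4 closest, and the log2 fold change was -0.14 (SE 0.0427, edgeR adjusted p = 0.556). Mvd, an enzyme of the mevalonate pathway, had -0.20 (adjusted p = 0.556), Fdft1, the squalene synthase, -0.11 (adjusted p = 0.556), and Srebf2, the regulator of the pathway, -0.14 (adjusted p = 0.556) in edgeR. With the GC trend removed the median was -0.07 and 16 were lower at an unadjusted p under 0.05, against 4.89% of all genes. Without the norepinephrine library of mouse 4 the median was -0.09 and 12 passed as lower, against 7.55% of all genes.
The integrated stress response slows translation and induces Atf4, which raises amino acid synthesis. Of its 24 genes, all tested, 0 passed in edgeR and 9 were lower at an unadjusted p under 0.05, against 5.56% of all genes. Their median was -0.10. Atf4 had -0.15 (adjusted p = 0.556), Cebpb, a transcription factor, -0.27 (adjusted p = 0.556), and Vldlr, a lipoprotein receptor, -0.20 (adjusted p = 0.556) in edgeR. The median was -0.14, -0.20, -0.09 and 0.01 in mice 1 to 4. Without the norepinephrine library of mouse 4, 7 passed as lower and 1 as higher, against 7.55% and 9.14% of all genes. Autophagy and lysosome genes had a median of -0.05 over 30 of 30 genes, with 0 past the threshold in edgeR. At an unadjusted p under 0.05, 6 were lower, against 5.56% of all genes. In the fit lacking the norepinephrine library of mouse 4, 8 passed as lower and 1 as higher, against 7.55% and 9.14% of all genes. The list's median was -0.08 there, and -0.03 with the GC trend removed. Among its genes was Ctsd, the protease cathepsin D, with -0.16 (edgeR adjusted p = 0.556).

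**Figure D3:**
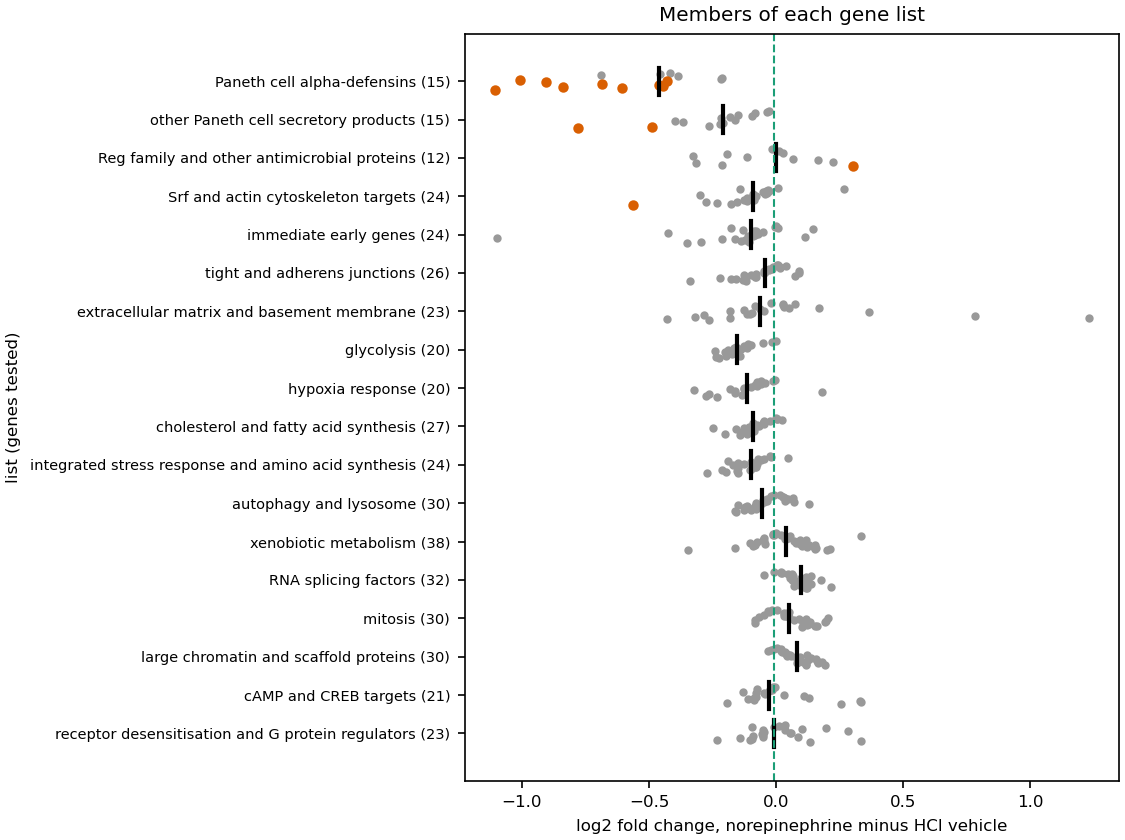
Log2 fold change of norepinephrine over HCl vehicle (x axis) of each tested member of 18 gene lists (y axis, number tested in brackets), orange where the gene passed and grey otherwise, with a black bar at the list's median and a dashed green line at the median of all tested genes. All orange points but that of Reg3b lie below 0, and the bars of the Paneth cell lists lie farthest to the left.

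Genes of epithelial structure and barrier did not pass in the model over all samples. Cldn4, a claudin of tight junctions, had 43.0, 70.0, 40.5 and 43.7 CPM with HCl vehicle in mice 1 to 4 and 33.7, 45.6, 31.1, 42.9 and 39.5 CPM with norepinephrine in mice 1 to 5. It was lower in each pair, by most in mouse 2 and least in mouse 4, with a log2 fold change of -0.34 (SE 0.0831, edgeR adjusted p = 0.255), and with the GC trend removed -0.27 (edgeR adjusted p = 0.0209). F11r, the junctional adhesion molecule A, had -0.12 (adjusted p = 0.556) in edgeR. Of 27 junction genes 26 were tested, 0 passed in edgeR, and 7 were lower at an unadjusted p under 0.05, against 5.56% of all genes. Their median was -0.05 (-0.02 with the GC trend removed). Without the norepinephrine library of mouse 4, 9 passed as lower and 2 as higher, against 7.55% and 9.14% of all genes. Lamb1, a laminin of the basement membrane, had 7.83, 10.1, 7.52 and 8.25 CPM with vehicle against 5.51, 7.90, 4.77, 7.06 and 5.85 CPM with norepinephrine. The change of Lamb1 was -0.43 (SE 0.0951, edgeR adjusted p = 0.148) while removal of the GC trend gave -0.41 (edgeR adjusted p = 0.0462). Plaur, the urokinase receptor, had -0.48 (adjusted p = 0.135) in edgeR and was lower in 4 of 4 mice. On the list of matrix and basement membrane genes 23 of 28 were tested and 0 passed in edgeR, with a median of -0.06. At an unadjusted p under 0.05, 2 were higher and 5 lower, against 2.83% and 5.56% of all genes. When the norepinephrine library of mouse 4 was left out, 7 passed as lower and 2 as higher, against 7.55% and 9.14% of all genes. The list's median was -0.12 there, and -0.02 with the GC trend removed.
Xenobiotic metabolism genes of enterocytes had no direction that held across the fits. All 38 were tested and 0 passed in edgeR, with 6 higher and 3 lower at an unadjusted p under 0.05 and a median of 0.04. Cyp2c29, a cytochrome P450, had 0.20 (adjusted p = 0.556) and Ugt2b5, a glucuronosyltransferase, 0.21 (adjusted p = 0.556) in edgeR. Both were higher in 4 of 4 mice, as were 5.32% of all genes, while Cyp26b1, which breaks down retinoic acid, had -0.35 (adjusted p = 0.255). With the GC trend removed 0 were higher and 3 lower at that limit, the median was 0.00, and the median GC content of the list was 46.3%. In the fit lacking the norepinephrine library of mouse 4, 14 passed as higher and 3 as lower, against 9.14% and 7.55% of all genes. In mice 1 to 3 alone with the GC trend removed 0 of 37 passed as higher and 5 as lower, against 1.06% and 2.25% of all genes.
Genes for machinery that every cell uses did not pass in the model over all samples. Of 42 nuclear genes for oxidative phosphorylation, all tested, 0 passed in edgeR and 2 were lower at an unadjusted p under 0.05, with a median of -0.04. Among 77 tested genes of cytosolic ribosomal proteins 0 passed, 2 were higher and 5 lower, with a median of -0.05, and among 31 proteasome genes 1 was lower, with a median of -0.02. Without the norepinephrine library of mouse 4, 11 of the 42, 12 of the 77 and 3 of the 31 passed as lower, and 0, 1 and 4 as higher. Of all genes 7.55% passed as lower and 9.14% as higher in that fit, beside which its counts for all lists here stand. In mice 1 to 3 alone with the GC trend removed 5 of 42, 10 of 76 and 3 of 31 passed as lower, and 0, 1 and 0 as higher. There 2.25% of all genes passed as lower and 1.06% as higher. The 25 tested interferon response genes had 2 higher and 4 lower at that limit, and the 21 of NF-kappaB and inflammation 2 lower, with none past the threshold. When the norepinephrine library of mouse 4 was left out, 2 interferon response genes passed as higher and 2 as lower, and 1 inflammatory gene as higher and 2 as lower. Of the growth pathways of the crypt, Wnt had 2 of 24 tested genes lower, Notch 1 of 18, and BMP and TGF-beta 1 of 19 at an unadjusted p under 0.05, with medians of -0.04, -0.06 and -0.01. In the fit lacking the norepinephrine library of mouse 4, 2, 3 and 1 of them passed as lower, and 0, 1 and 1 as higher. DNA replication genes, 30 tested, had 0 at that limit and a median of 0.00, and without the norepinephrine library of mouse 4 4 passed as higher.
RNA splicing factors, mitosis genes and large chromatin proteins had medians of 0.10, 0.05 and 0.08. Of these 32, 30 and 30 genes 0 passed in edgeR, and 3, 4 and 3 were higher at an unadjusted p under 0.05. Pnn, a splicing factor of nuclear speckles, had 0.12 (adjusted p = 0.556) and Prc1, which bundles microtubules of the dividing cell, 0.10 (adjusted p = 0.556) in edgeR. Each was higher in 4 of 4 mice, as were 5.32% of all genes. Without the norepinephrine library of mouse 4, 21, 15 and 13 genes of these lists passed as higher and 0, 1 and 0 as lower. Of all genes 9.14% passed as higher and 7.55% as lower in that fit. The GC content of the lists had medians of 43.9%, 44.9% and 46.2%, and with the GC trend removed their medians were 0.04, 0.01 and 0.05.

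How many genes passed beyond the 16 depended on mouse 4. Across all 15247 genes the paired differences of mice 1 to 3 correlated with each other by Pearson's r of 0.127, 0.128 and 0.176, and with those of mouse 4 by -0.0610, -0.0769 and -0.0968. These correlations are across genes, which are not independent, and each pair shares the composition of its libraries. The slope of the paired difference on GC content was -0.125, -0.165 and -0.201 log2 units per 10 percentage points in mice 1 to 3 and 0.139 in mouse 4. In the 10% of genes with the lowest GC content the median difference was 0.14, 0.15, 0.23 and -0.18 in mice 1 to 4, and in the 10% with the highest it was -0.09, -0.14, -0.16 and 0.08. With the GC trend removed, r was 0.0670, 0.0522 and 0.0867 among mice 1 to 3, and between -0.00437 and -7.67e-05 with mouse 4. Counts on ribosomal RNA (gene CT010467.1) made up 1.98% and 2.02% of the 2 libraries of mouse 4 and 1.83% of the norepinephrine library of mouse 5, against 0.313% to 0.464% in the other 6.
Genes higher at an unadjusted p under 0.05 had a median GC content of 44.8% and those lower 54.7%, against 50.0% for all genes. For the 14 genes that fell it was 50.2%. In mice 1 to 3 alone with the GC trend removed, 478 of 14441 genes passed (3.31%), 153 higher (1.06%) and 325 lower (2.25%), and 930 were higher (6.44%) and 1228 lower (8.50%) at an unadjusted p under 0.05. There 12 of 13 tested α-defensins passed as lower, with a median of -0.57, 13 of 20 glycolysis genes (-0.14), 8 of 20 hypoxia response genes (-0.12), 9 of 27 cholesterol and fatty acid synthesis genes (-0.08) and 4 of 24 Srf and actin genes (-0.07). Of the 32 splicing factors 4 passed as higher, of the 30 mitosis genes 0 and of the 30 large chromatin genes 2, with medians of 0.05, 0.01 and 0.05. The pair of mouse 4 and the treatment it received cannot be told apart from its library, since each condition had 1 library per mouse.

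**Figure D4:**
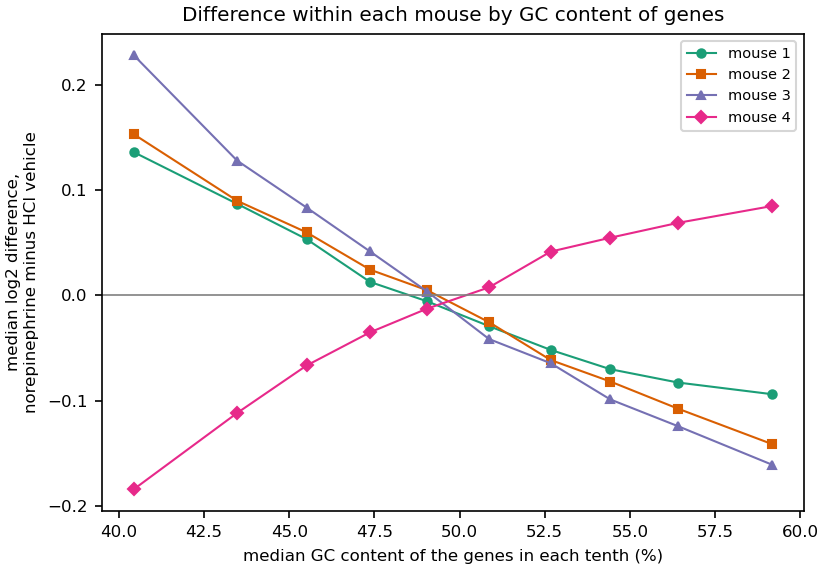
Median paired log2 difference of norepinephrine minus HCl vehicle (y axis) within each mouse, for 10 equal bins of the tested genes ordered by GC content (x axis, %). Lines of mice 1 to 3 run from 0.14, 0.15 and 0.23 down to -0.09, -0.14 and -0.16, and that of mouse 4 runs from -0.18 up to 0.08.

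**Figure D5:**
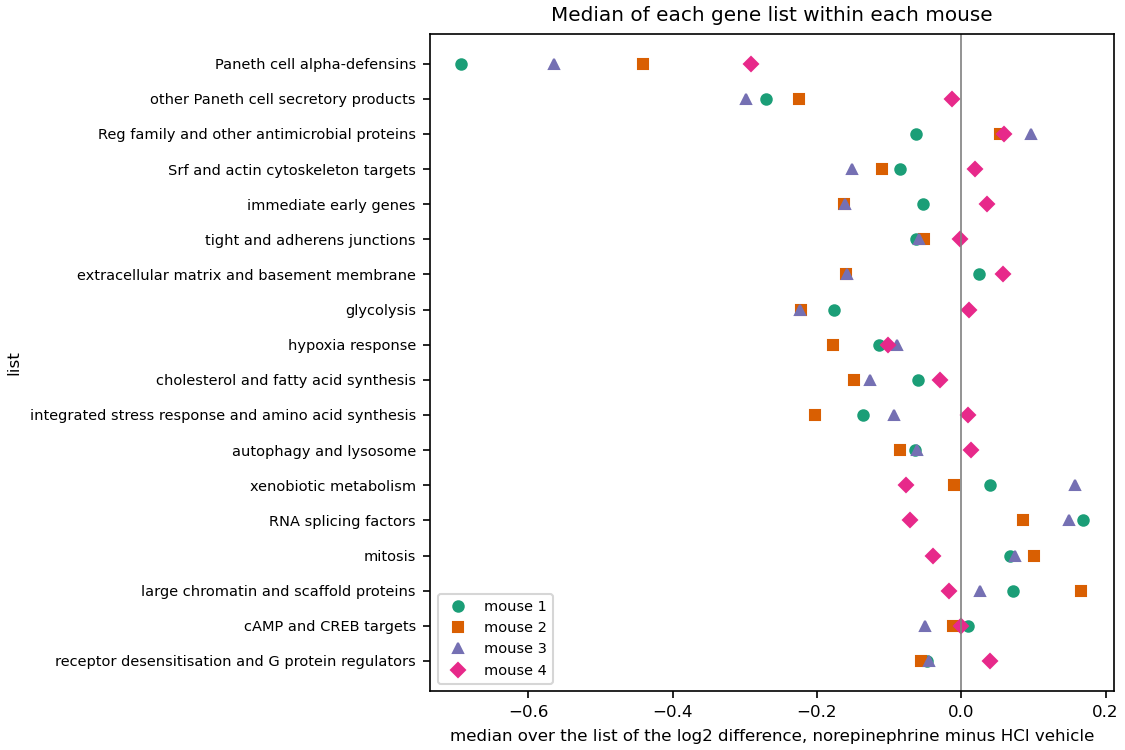
Median over each gene list (y axis) of the paired log2 difference of norepinephrine minus HCl vehicle (x axis) in mice 1 to 4. The α-defensin medians are below 0 in all mice, while those of glycolysis are below 0 in mice 1 to 3 and 0.01 in mouse 4.

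Whether a change was particular to norepinephrine was tested as the difference between its effect and that of UK14304 over DMSO vehicle, in the same mice. Of 15247 genes 0 differed at an adjusted p under 0.05 in edgeR (lowest 0.0563), and 405 had an unadjusted p under 0.05. This count depended on the samples and the filter. Without all samples of mouse 4, 12 of 15263 genes differed, with 1718 at an unadjusted p under 0.05. With the GC trend removed 1 gene differed, as did 1 without the norepinephrine library of mouse 4. With no filter on low counts 24 of 33375 differed, and without the block 0. Txnip had a log2 fold change of 0.18 with norepinephrine and 0.37 with UK14304, a difference of -0.19 (SE 0.0440, unadjusted p = 0.000410 from edgeR). Pla2g2a differed by -0.26 (SE 0.0915), with -0.49 for norepinephrine and -0.23 for UK14304. Acta1 had -0.56 and -0.66, and Reg3b 0.30 and 0.27. For the other 12 of the 16 the difference lay between -0.28 (Defa-ps6, SE 0.295) and 0.22 (Defa40, SE 0.253). For Kcnq1ot1 the values were 1.21 and -0.40, and for Malat1 0.46 and 0.03, with differences of 1.61 (SE 0.489) and 0.43 (SE 0.236).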

How the data were processed

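Whole organoids were sequenced as single reads of 50 bases from poly(A) libraries. The deposited values were raw gene counts that the authors made with STAR 2.7.3 and featureCounts (Subread 1.6.4, with FastQC 0.11.8, MultiQC 1.7 and SAMtools 1.9, per the submitters' processing notes) on GRCm38, without strand and without reads that map to several places or genes. The header of the counts table names featureCounts 2.0.1. The table held 55487 genes, of which 55141 had a symbol, and no count on the 37 mitochondrial genes.

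All 18 samples were fitted together with edgeR 4.0.16 in R 4.3.3 (TMM, expression filter by group, quasi-likelihood F test, group and mouse as terms). Testing on simulated data with known changes preceded the fits. The simulated libraries held no trend along GC content, so that test does not cover the trend seen in the norepinephrine library of mouse 4. The replicate number was read as the mouse from the sample names, and the deviations of same-numbered norepinephrine and HCl samples from their group means correlated by 0.160, 0.420, 0.431 and 0.119 across genes, so the numbers were treated as pairs. With the mouse as a term, differences between mice that all conditions share do not enter the p-values. These measure the spread that remains between libraries, pooled over all 18 samples. CPM shown were scaled by TMM, and totals from 21.9 M to 25.9 M counts per library limit single genes at a few counts to wide errors. Paired log2 differences of single mice used log2 CPM with a prior count of 2. GC and length trends were removed as lowess offsets (span 0.3), with GC content known for 15229 genes. DESeq2 1.42.0 and limma 3.58.1 served as alternatives, beside other filters, sample sets and leaving out each library. Genes were named by this rule: all past the threshold where 30 or fewer, up to 15 per direction the next by p that moved alike in all 4 mice, up to 4 of smallest p from each gene list, and the tested adrenergic receptors. Some genes the rule named are not reported here. Rhob, Itln1 and Hif1a were named outside it after their values were seen. The lists, the members and the comparison were chosen with earlier results of these data known. Near copies were sought with blastn 2.17.0 (at least 50 bp, at least 95% identity). Promoter sequences came from a RefSeq table.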

Additional observations from a re-analysis of the deposited data

Results flagged for a closer look

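Of 38 groups of values examined, 5 had a sample far from the others by Dixon's gap ratio, which chance alone gives in about 1 of 20 groups. Among the HCl libraries that of mouse 4 had 2.02% of its counts on the ribosomal RNA gene, against 0.346% to 0.414% in the other 3 (ratio 0.960). Among the norepinephrine libraries that of mouse 4 had the GC slope of 0.208 against -0.156 to -0.0763 in the other 4 (ratio 0.780). The other 3 were defensins in mouse 2. Defa29 had 11.8 CPM with HCl vehicle in mouse 2 and 16.0 to 16.3 CPM in the other mice (ratio 0.923), Defa30 had 94.3 CPM with norepinephrine in mouse 2 and 138 to 147 CPM in the others (ratio 0.837), and Defa26 had 11.7 CPM with norepinephrine in mouse 2 and 15.0 to 15.6 CPM in the others (ratio 0.843). In each of these the partner sample of mouse 2 was also the lowest of its group.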

How the results depend on the processing

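The 16 genes had the same sign under all 24 alternative fits in which they were tested, but their number past the threshold changed. The replicate block, which pairs the samples of one mouse, decided the count: without it 0 genes passed in edgeR (943 at an unadjusted p under 0.05), 0 with the norepinephrine and HCl samples alone (921) and 0 in DESeq2 (890), and limma-voom with the mouse as a random effect also gave 0 (1208). With the block DESeq2 gave 34, no filter on low counts 153 of 33375 genes, removal of the GC trend 36, and a log2 fold change of at least 0.5 in size left 9. The norepinephrine and HCl samples alone, with the block, kept 13 of the 16, losing Txnip (adjusted p = 0.264), Defa40 (0.253) and Defa26 (0.102), and correction for gene length or for the ribosomal RNA share kept 15 each, losing Defa40 (0.0584 and 0.0601). Leaving out 1 library gave between 10 and 2529 calls, the latter without the norepinephrine library of mouse 4. Without all libraries of mouse 4 the count was 2300, for mice 1 to 3 of the 2 groups alone 2830, and there with the GC trend removed 478. The cause was not tested. Of the 16, 10 passed whichever library was left out. Txnip, Reg3b, Defa40, Defa26, Defa-ps6 and Defa3 did not: Defa26 was lost without the HCl library of mouse 1, 2 or 3 or norepinephrine of mouse 1 or 3, Defa-ps6 without HCl of mouse 1 or norepinephrine of mouse 1 or 2, Defa3 without either library of mouse 1, and Defa40 without any one HCl library or norepinephrine of mouse 2, 3 or 5. The log2 fold change of Adra2a turned to 0.0307 with the GC trend removed (adjusted p = 0.929 in edgeR) and to 0.0568 with mice 1 to 3 and the GC trend removed (adjusted p = 0.708). Medians under leaving out 1 library ran from -0.65 to -0.43 for the α-defensins, from 0.0461 to 0.12 for mitosis and, for cAMP and CREB targets, median log2 fold changes from -0.0609 to -0.0107, with the norepinephrine library of mouse 4 setting the ends -0.65, 0.12 and -0.0609, and the last median was 0.0133 with mice 1 to 3 and the GC trend removed. Of the named genes, 0 differed between norepinephrine and UK14304, against 6 without a filter on low counts and 1 without mouse 4. Genes at a few counts per library are limited by depth.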
